A study of Mus musculus with 9 samples.

Results

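Chemokine genes, namely *Cxcl1*, *Cxcl2*, *Cxcl5*, *Cxcl10*, *Cxcl12*, *Cxcl16*, *Cx3cl1*, *Ccl2*, *Ccl7* and *Ccl20*, were examined in AML12 cells, a non-tumour hepatocyte line derived from mouse liver. The 10 genes were chosen by name from the chemokine family, with earlier results for these libraries known. Of these 10, 9 are among the 13643 genes listed in either deposited table. Cells had received Srrm2 shRNA 1 or Srrm2 shRNA 2 by lentivirus or were controls, with 3 libraries in each of the 3 groups. The labels put the knockdown cells at day 5 of infection, and give the shRNA of the control cells only as control, with no hairpin named. All cells were grown with serum, an insulin, transferrin and selenium supplement and dexamethasone, a glucocorticoid that restrains inflammatory genes. Nothing in the sources used here says whether the 3 libraries of a group came from separate cultures.

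The deposited files are 2 tables of results, one for each hairpin against the control. Besides the authors' own comparison they give 1 measurement for each gene, the mean normalized count, which is the read count divided by a factor for library depth and averaged over the libraries of the table. The table called here the shRNA 1 table pools control and shRNA 1 libraries in this mean, and the shRNA 2 table pools control and shRNA 2 libraries. These pooled values come without any per library, so neither an error nor a test nor the depth of a library stands behind the levels given here, and the difference between knockdown and control cells cannot be read from them. What the pooled means do give is the level of each chemokine gene in these cells and, because both tables are taken to hold the same control libraries, the direction and the least size of the difference between the hairpins.

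Chemokines are small secreted proteins that guide white blood cells along a concentration gradient by binding G protein-coupled receptors. They are grouped by the spacing of the first cysteines of the mature protein, which are adjacent in CC chemokines, separated by 1 residue in CXC chemokines and by 3 in CX3C chemokines. Hepatocytes in an inflamed liver release several of them and so draw neutrophils and monocytes into the tissue.

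Of the 10 genes, 8 were listed in both tables, and all 8 reached 10 normalized counts in each. *Cxcl10* was listed in the shRNA 2 table alone and *Cxcl12* in neither. The sequences around the class-defining cysteines are shown for all 10 genes. The class was taken from the gene name. A fixed stretch of codons at the start of the coding sequence was skipped, and the first match after it to the cysteine pattern of the class was used. Each is a stretch of 30 coding bases from the longest coding transcript in GENCODE M1, written from 5′ to 3′ on the coding strand, with the codons of the 2 class-defining cysteines in capitals. Each lies within 1 exon.
Cxcl1: gagctgcgcTGTcagTGCctgcagaccatg
Cxcl2: gaactgcgcTGTcaaTGCctgaagaccctg
Cxcl5: gagctgcgtTGTgttTGCttaaccgtaact
Cxcl10: acggtccgcTGCaacTGCatccatatcgat
Cxcl12: agctaccgaTGCcccTGCcggttcttcgag
Cxcl16: gctggaagtTGTtctTGTgatcgtaccatt
Cx3cl1: atgacgaaaTGCgaaatcatgTGCgacaag
Ccl2: ccactcaccTGCTGCtactcattcaccagc
Ccl7: gcatccacaTGCTGCtatgtcaagaaacaa
Ccl20: aactacgacTGTTGCctctcgtacatacag

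In *Cxcl1*, *Cxcl2* and *Cxcl5* the 3 codons just before the cysteines encode glutamate, leucine and arginine, the ELR motif of the chemokines that attract neutrophils. The other CXC members lack it at this place. On mm9 the stretches of these 3 genes lie on chromosome 5 at chr5:91320513-91320542, chr5:91333159-91333188 and chr5:91188744-91188773, all on the + strand. Those of *Cxcl10* and *Cxcl12* lie at chr5:92777195-92777224 (- strand) and chr6:117121517-117121546 (+ strand). Those of *Cxcl16* and *Cx3cl1* lie at chr11:70272617-70272646 (- strand) and chr8:97301942-97301971 (+ strand). For the CC members the positions are chr11:81849999-81850028 for *Ccl2*, chr11:81860031-81860060 for *Ccl7* and chr1:83114379-83114408 for *Ccl20*, all on the + strand. Coding sequences were most alike between *Cxcl1* and *Cxcl2*, which shared 75.7% of aligned bases, while *Ccl2* and *Ccl7* shared 45.6%.

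The neutrophil chemokines were measured at very different levels. *Cxcl1* (ENSMUSG00000029380.10, chr5:91320267-91322141, 4 exons), a main attractant of neutrophils in mouse, had a mean normalized count of 658 in the shRNA 1 table and 588 in the shRNA 2 table. *Cxcl5* (ENSMUSG00000029371.5, chr5:91188325-91190651), which is made by epithelial cells and binds the same receptor, Cxcr2, had 360 and 407. *Cxcl2* (ENSMUSG00000058427.6, chr5:91332897-91334935) had 17.5 and 21.7. Divided by the exonic length of each gene, the mean of *Cxcl1* was 690 normalized counts per kb in the shRNA 1 table and 616 in the shRNA 2 table, against 218 and 246 for *Cxcl5* and 9.59 and 11.9 for *Cxcl2*. Per kb, *Cxcl1* thus stood 72.0 times as high as *Cxcl2* in the shRNA 1 table and 52.0 times in the shRNA 2 table. *Cxcl2* shares 61 of its 1781 windows of 50 bases with coding transcripts of other genes, and which genes these are was not recorded. The coding sequence of *Cxcl3* is 87.8% identical to that of *Cxcl2*. Since only uniquely mapped reads were kept, reads from shared stretches can be lost.

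The monocyte chemokine *Ccl2* (ENSMUSG00000035385.5, chr11:81849073-81850955), which calls monocytes through Ccr2, had the highest level of the 10 genes. Its mean normalized count was 1588 in the shRNA 1 table and 1849 in the shRNA 2 table. Per kb of exon this was 1396 and 1625, at percentiles 99.0 and 99.2 of the genes listed in each table. *Ccl7* (ENSMUSG00000035373.2, chr11:81859214-81861027), which also binds Ccr2, had a mean normalized count of 29.8 in the shRNA 1 table and 47.4 in the shRNA 2 table. Per kb of exon, *Ccl2* was 37.6 times as high as *Ccl7* in the shRNA 1 table and 27.4 times in the shRNA 2 table. The gene model of *Ccl2* lies wholly within that of *Gm17268*, a gene on the opposite strand that was listed in the shRNA 2 table alone, at 3.59 normalized counts.

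*Ccl20* (ENSMUSG00000026166.8, chr1:83113341-83115742), the ligand of Ccr6 on dendritic and Th17 cells, differed most between the tables. Its mean normalized count was 314 in the shRNA 1 table and 676 in the shRNA 2 table, and its level per kb of exon was 221 and 476. It moved from percentile 89.2 to percentile 96.0 of the genes listed, by level per kb. In the shRNA 1 table *Ccl20* and *Cxcl5* were nearly level per kb, and in the shRNA 2 table *Ccl20* stood well above.

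Both membrane-bound members were listed. *Cxcl16* (ENSMUSG00000018920.5, chr11:70267485-70273486, - strand), a transmembrane CXC chemokine that binds Cxcr6 and can also act as a scavenger receptor, had a mean normalized count of 309 in the shRNA 1 table and 427 in the shRNA 2 table, or 102 and 141 per kb of exon. *Cx3cl1* (ENSMUSG00000031778.6, chr8:97295909-97306323), or fractalkine, which can hold cells that carry Cx3cr1 or be shed to attract them, had 10.9 and 14.1, or 2.93 and 3.80 per kb. Both proteins are released from the membrane by the proteases Adam10 and Adam17. *Adam10* was measured at 1356 normalized counts in the shRNA 1 table and 1343 in the shRNA 2 table, and *Adam17* at 338 and 355. *Cxcl16* overlaps *Zmynd15* on the opposite strand by 552 bases, and how the authors' counting treated strand is not given in the sources used here.

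The remaining CXC members were low or without a value. *Cxcl10* (ENSMUSG00000034855.7, chr5:92775664-92777915, - strand), an interferon-induced attractant of T cells through Cxcr3, had a mean normalized count of 3.01 in the shRNA 2 table and lies within the gene model of *Art3* on the opposite strand. *Cxcl12* (ENSMUSG00000061353.5, chr6:117118553-117131385), the ligand of Cxcr4 that keeps blood stem cells in the marrow and is made mostly by stromal cells, has no value here. The lowest mean listed was 1.56 in the shRNA 1 table and 1.92 in the shRNA 2 table, and absence from a table says no more than that the gene was not listed.

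**Figure D1:**
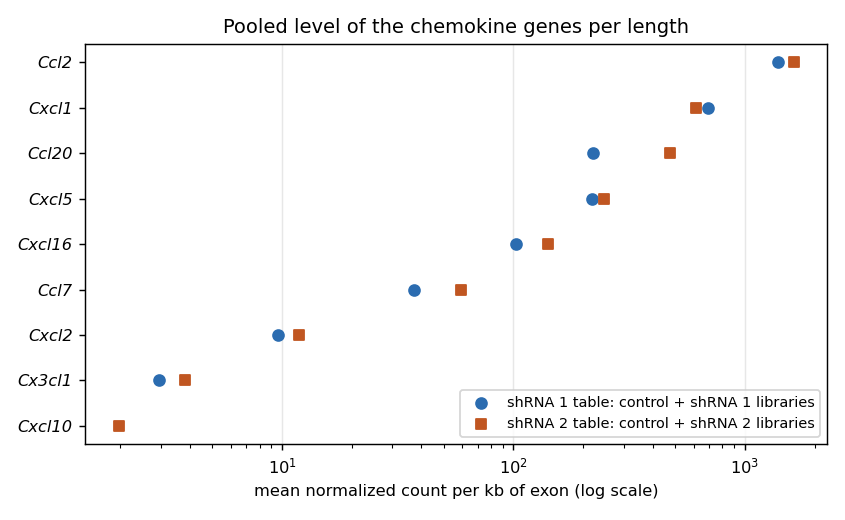
Mean normalized count per kb of exon, on a log axis, for the 9 chemokine genes with a value, in the shRNA 1 table (circles, control and shRNA 1 libraries pooled) and the shRNA 2 table (squares, control and shRNA 2 libraries pooled). Each point is the authors' mean with no error; *Ccl2* is highest at 1396 and 1625, and *Ccl20* moves furthest to the right, from 221 to 476.

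By level per kb the 8 genes with both values had the same order in both tables, which was *Ccl2*, *Cxcl1*, *Ccl20*, *Cxcl5*, *Cxcl16*, *Ccl7*, *Cxcl2* and *Cx3cl1*. Which neighbours in this order differ beyond the spread of the libraries cannot be said, since the pooled means carry no spread. Using the longest coding transcript in place of all exons left the order as it was.

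The members were compared with the rest of the chemokine system from lists of ligands, receptors and processing enzymes. Of 39 ligand genes in the annotation, 19 were listed in either table and 20 in neither. The 10 members made up 95.5% of the summed mean normalized counts of the ligands in the shRNA 1 table and 96.0% in the shRNA 2 table. The 5 highest members alone made up 93.8% and 94.0%. These sums are not divided by length. Since the members were chosen with earlier results for these libraries known, nothing is read from their share. Of the 29 other ligands, 10 were listed, and 6 of these reached a mean of 10 in either table. *Cxcl17* had mean normalized counts of 51.1 in the shRNA 1 table and 54.2 in the shRNA 2 table, *Ccl25* had 30.2 and 29.8, and *Ccl9* had 22.5 and 30.9. *Ccl17* had 10.6 and 11.7, *Cxcl3* had 13.0 and 7.33, and *Cxcl11* had 7.06 and 12.3.

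Receptors for these ligands were almost absent from the tables. Of 19 chemokine receptors 1 was listed, *Cxcr2*, the receptor of the ELR chemokines, at mean normalized counts of 2.51 and 2.43. Of 5 atypical receptors, which bind chemokines without the usual signal, 0 were listed.

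Several members sit in chemokine gene clusters. On chromosome 5, 7 ligand genes from *Cxcl5* to *Cxcl2* lie within chr5:91188325-91334935, and 5 of them were listed. *Cxcl1* and *Cxcl2* start 12.6 kb apart and *Cxcl5* and *Cxcl1* 132 kb apart. Between them, *Ppbp*, which encodes a platelet chemokine, had 5.60 normalized counts per kb in the shRNA 1 table and 6.02 in the shRNA 2 table, *Cxcl3* had 12.9 and 7.27, and *Pf4* and *Cxcl15* were not listed. High and low genes were therefore interleaved within the cluster. On chromosome 11, *Ccl2* and *Ccl7* start 10.1 kb apart at one end of a cluster of 6 ligand genes that reaches to *Ccl1*. The other 4 genes of that cluster, *Ccl11*, *Ccl12*, *Ccl8* and *Ccl1*, were not listed. In a further cluster of 5 ligand genes on the same chromosome, *Ccl9* and *Ccl6* were listed, while *Ccl5*, *Ccl3* and *Ccl4*, known mainly as products of white blood cells, were not.

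**Figure D2:**
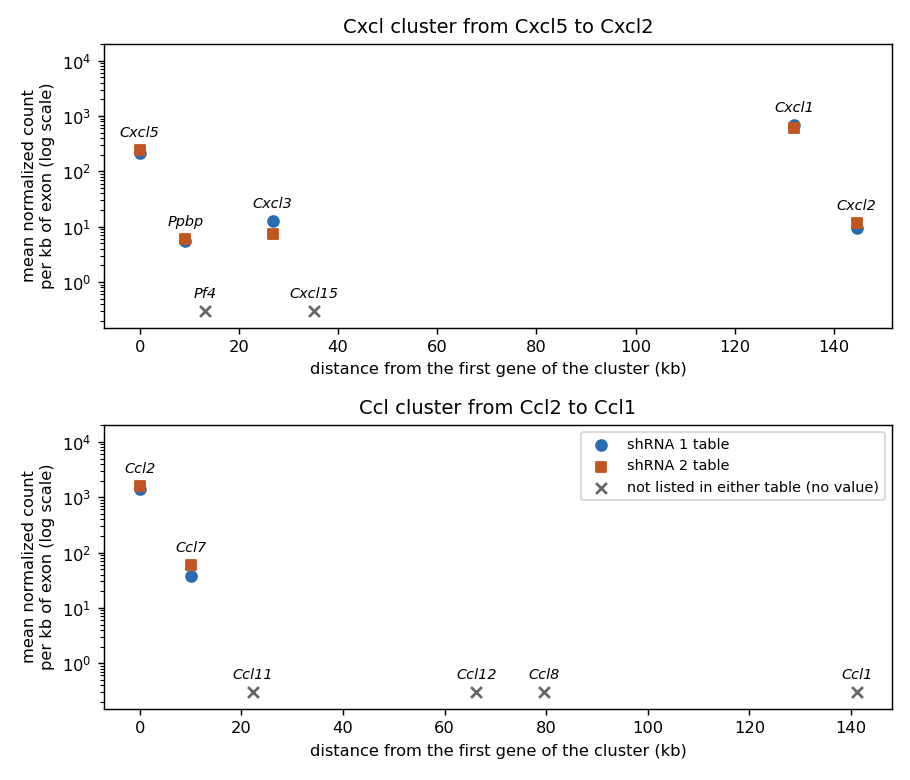
Mean normalized count per kb of exon (log axis) against distance from the first gene of the cluster in kb, for the *Cxcl* cluster of chromosome 5 (top) and the *Ccl* cluster of chromosome 11 (bottom), in the shRNA 1 table (circles) and the shRNA 2 table (squares). Crosses at the foot mark genes with no value; *Cxcl5* at 218 and *Cxcl1* at 690 in the shRNA 1 table have *Ppbp* at 5.60 and *Cxcl3* at 12.9 between them, and in the lower panel *Ccl2* and *Ccl7* alone have values.

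Promoter sequences from RefSeq (GRCm38.p6, a later build than that of the files, windows of 300 bases around the start of transcription, most of them upstream) matched 6 members, *Cxcl1*, *Cxcl2*, *Cxcl10*, *Cxcl12*, *Cx3cl1* and *Ccl20*. There was no entry for *Cxcl5*, *Cxcl16*, *Ccl2* and *Ccl7*. The NF-kB consensus, the binding motif of a factor known to switch on inflammatory genes, was searched on both strands and occurred in 4 of these 6 promoters, against 8.46% of the 32851 promoters of the table. The AP-1 motif TGANTCA occurred in 1 of the 6, that of *Cxcl10*, against 7.81% of all. The members were chosen by name with earlier results for these libraries known, and nothing is read from these shares. The 4 promoters are shown around their matches, 5′ to 3′ on the strand of the gene, with matches to either motif in capitals. Adjoining matches that overlap are merged into 1 run.
Cxcl1: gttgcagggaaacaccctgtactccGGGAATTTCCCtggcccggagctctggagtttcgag
Cxcl2: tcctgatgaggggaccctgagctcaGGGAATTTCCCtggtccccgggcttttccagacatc
Ccl20: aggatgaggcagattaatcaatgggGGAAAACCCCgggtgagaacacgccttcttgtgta
Cxcl10: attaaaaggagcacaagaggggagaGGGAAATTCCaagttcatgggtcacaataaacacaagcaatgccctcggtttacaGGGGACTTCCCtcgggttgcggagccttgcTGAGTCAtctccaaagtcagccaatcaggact

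The stretches lie at chr5:90891149-90891209 and chr5:90903777-90903837 for *Cxcl1* and *Cxcl2*, at chr1:83116661-83116720 for *Ccl20*, and on the - strand at chr5:92348932-92349073 for *Cxcl10*, all on GRCm38.p6. The matched letters are identical in *Cxcl1* and *Cxcl2*, whose levels per kb lay far apart, and begin 71 and 97 bases before the start of transcription. That of *Ccl20* begins 80 bases before it. A match describes these letters and does not show that a factor was bound.

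To compare the hairpins, the mean in the shRNA 2 table was divided by that in the shRNA 1 table and the ratio was scaled so that its median was 1 over the 11451 genes that reached 10 normalized counts in each. With the same 3 control libraries in both tables, the scaled difference of the pooled means, doubled, is the mean with shRNA 2 minus the mean with shRNA 1, and the ratio between the hairpins is at least as far from 1 as the pooled ratio. This holds for the measured means as far as 1 factor brings both tables to the same scale, and carries no replicate error. *Srrm2*, the targeted gene, had 3428 normalized counts in the shRNA 1 table and 3759 in the shRNA 2 table, a scaled log2 ratio of 0.06. The depth of its knockdown cannot be checked on pooled means. The paper reports reduced Srrm2 mRNA and protein with both hairpins in AML12 cells, by RT-qPCR and western blot.

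*Ccl20* had the largest ratio of the members. Its scaled mean in the shRNA 2 table was 643 normalized counts against 314 in the shRNA 1 table, so that its mean with shRNA 2 was at least 2.05-fold that with shRNA 1, a scaled log2 ratio of 1.03. The difference between the hairpins was 658 normalized counts. It ranked 21 among the 11451 genes. If control cells had the same level as cells with shRNA 1, the ratio between the hairpins would be 3.10. The mean of the control cells cannot have been above 627 normalized counts. At that limit the mean with shRNA 2 would be 658, and it would be higher at any lower control mean. On the stated assumptions the mean with shRNA 2 thus lay above that of the control cells, by an amount that cannot be read. Whether shRNA 1 lay above or below the control is not settled, and none of this carries a replicate error.

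*Ccl7* had a pooled ratio of 1.52 and a scaled log2 ratio of 0.60, at percentile 99.2 of the 11451 genes, with a difference of 30.7 normalized counts between the hairpins. *Cxcl16* had a pooled ratio of 1.31, at percentile 97.5, with a difference of 192 normalized counts. These 3 members had a scaled mean at least 25% higher in the shRNA 2 table, and 0 members had one at least 20% lower, which is the same ratio turned round. Of all genes, 8.29% passed this ratio in either direction and 3.88% were higher. Since the members were chosen with differences between the hairpins already known, nothing is read from their share.

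Of the members under that ratio, *Cx3cl1* came closest at 1.24, on means of only 10.9 and 13.4 normalized counts. *Cxcl2* had a ratio of 1.18, *Ccl2* 1.11 and *Cxcl5* 1.07. For *Ccl2* this small ratio was a difference of 341 normalized counts between the hairpins. *Cxcl1* alone was lower in the shRNA 2 table, with a scaled log2 ratio of -0.24 (a difference of -198 normalized counts, shRNA 2 minus shRNA 1), so that its mean was at least 1.18-fold higher with shRNA 1. Thus 7 of the 8 members were above a ratio of 1 and 1 was below, with a median scaled log2 ratio of 0.27, where the median of all genes is 0 by construction. This describes genes chosen with these differences known, and nothing is read from it about the group. *Cxcl1* and *Cxcl2*, next to each other on the chromosome, had ratios on opposite sides of 1.

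**Figure D3:**
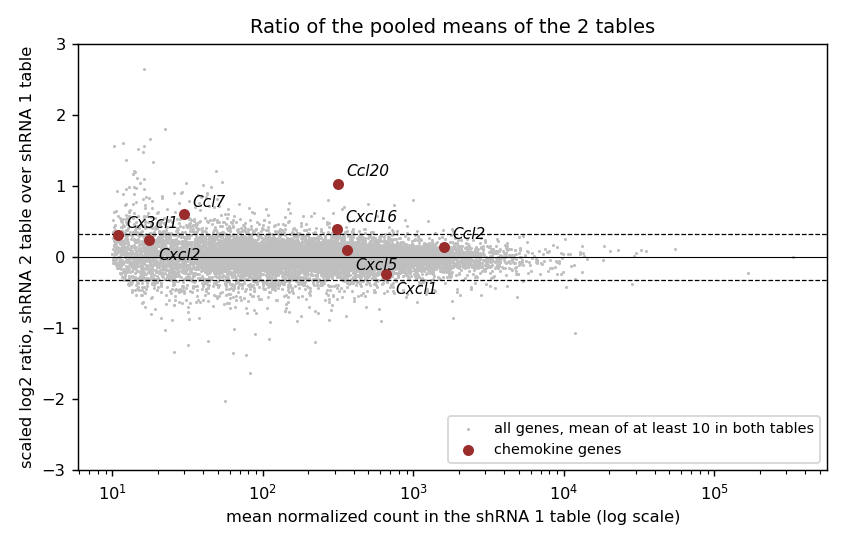
Scaled log2 ratio of the mean in the shRNA 2 table over that in the shRNA 1 table against the mean normalized count in the shRNA 1 table (log axis), for 11451 genes (grey) and the 8 chemokine genes with values (red); dashed lines mark a mean 25% higher or 20% lower in the shRNA 2 table. *Ccl20* at 1.03, *Ccl7* at 0.60 and *Cxcl16* at 0.39 lie above the upper line, and *Cxcl1* at -0.24 is below 0.

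**Figure D4:**
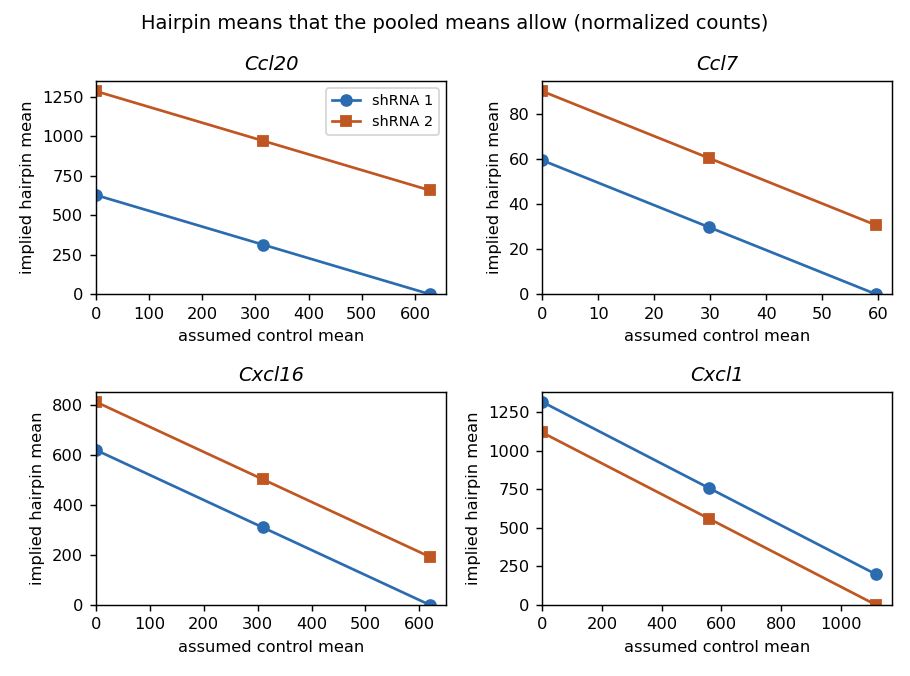
Mean normalized count with shRNA 1 (circles) and shRNA 2 (squares) that the pooled means imply, against the assumed mean of the control cells, from 0 to the highest value possible. The lines keep a fixed distance, 658 for *Ccl20*, 30.7 for *Ccl7*, 192 for *Cxcl16* and -198 for *Cxcl1*, while the levels themselves depend on the control mean, which the pooled values do not give.

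The 4 other ligands that reached 10 normalized counts in each table had scaled log2 ratios of 0.38 for *Ccl9*, 0.06 for *Ccl17*, 0.01 for *Cxcl17* and -0.09 for *Ccl25*. *Adam10* and *Adam17* had -0.09 and -0.0021. Neither sheddase passed the ratio, and of these ligands *Ccl9* did, at 1.30.

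The hepatocyte label was set beside markers of this and other cell types. All 7 hepatocyte markers were listed, from *Apoa1* at 39.4 and 38.9 normalized counts to *Krt18* at 9848 and 8953, with *Alb* at 2151 and 1814. Of 4 markers of bile duct cells, 3 were listed too, with *Krt19* at 2851 and 2753, *Krt7* at 1351 and 1617 and *Sox9* at 670 and 750. The remaining bile duct marker, *Epcam*, was not listed. White blood cells also make chemokines. Of 9 of their markers 4 were listed, namely *Cd14* at 490 and 526, *Csf1r* at 26.2 and 27.2, *Cd68* at 25.1 and 29.8, and *Ptprc*, which marks all white blood cells, at 5.30 and 5.47. *Itgam*, *Emr1*, *Lyz2*, *Tyrobp* and *Fcer1g* were not listed. The summed mean of the 4 was 547 normalized counts in the shRNA 1 table and 560 in the shRNA 2 table after scaling. *Cd14* alone gave 490 and 500 of these, so the sums say little about the other 3. Of the 3 with a mean of 10 or more, 0 had a scaled mean at least 25% higher or 20% lower in the shRNA 2 table. Of 6 endothelial and 6 stellate or fibroblast markers, 1 and 2 were listed, none above 8.03 normalized counts in either table. The endothelial marker, *Vwf*, had 2.45 normalized counts in the shRNA 1 table and 7.16 in the shRNA 2 table, a pooled ratio of 2.79 on means too low for the minimum of 10. The stellate or fibroblast markers *Des* and *Col1a1* had 8.03 and 5.67, and 3.85 and 3.99. The part of any of these cell types in the chemokine ratios was not tested. All libraries were made from a cultured line, AML12, which the paper reports as authenticated, and not from liver tissue. The bulk means alone do not say which cells made a given RNA. They also do not tell fewer cells of a type from less RNA per cell.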

How the data were processed

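The paper describes the RNA-seq libraries of AML12 cells as enriched for polyA RNA and strand-specific. They were grouped by their titles into control, Srrm2 shRNA 1 and Srrm2 shRNA 2, with 3 each. The labels of 2 control libraries name tables of further hairpins, which were not analysed here, and both tables used are taken to pool all 3 control libraries. Per the paper's methods and the labels, the authors aligned reads to mm9 with TopHat2, retained unique concordant pairs, counted them with HTSeq on GENCODE M1 genes and ran DESeq2 1.8.2. The deposited signal used here is the mean of size-factor-normalized counts over the libraries of a comparison. The tables also hold the authors' fold changes, their standard errors, test statistics and p-values, which were not used. Columns of values per library were 0, so depth per library is unknown, no replicate error was available and no test was made. The shRNA 1 table lists 13424 genes, whose means sum to 6144610, and the shRNA 2 table lists 13478, which sum to 6393460.

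Gene models came from GENCODE M1 on NCBIM37 (the assembly of mm9), to which every gene identifier matched, and exonic length is the union of all exons. Means of the shRNA 2 table were divided by 1.05, the median ratio of the 11451 genes that reached 10 normalized counts in each. The calculation of the scaled ratio was checked on simulated data before use. Those data had the same controls in both tables and changes with shRNA 2 alone, so these assumptions were not tested. All 10 members are named, with the other ligands and receptors that reach a mean of 10 in either table, the listed processing enzymes, and *Srrm2*; *Cxcr2*, further cluster genes, overlapping genes and marker genes are named besides. The members and gene lists were chosen with earlier results of these data known. Alternatives were other scalings, minimum means and ratios, a pseudocount of 1 and transcript length. Coding sequences were aligned globally. Python 3.11.15, numpy 2.4.6, pandas 2.3.3, Biopython 1.88 and matplotlib 3.10.9 were used.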

Additional observations from a re-analysis of the deposited data

How the results depend on the processing

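At a mean 25% higher or 20% lower, 444 genes were higher and 505 lower in the shRNA 2 table, and 3 members were higher and 0 lower. Without scaling there were 787 and 294 genes, and *Cx3cl1* joined the 3 members with a log2 ratio of 0.38. Without a minimum mean there were 871 and 888 genes, and with a minimum of 50 there were 190 and 307. That minimum kept 5 of the 8 members, of which 2 were higher, *Ccl20* and *Cxcl16*, and 0 lower, since *Ccl7* at 29.8 normalized counts in the shRNA 1 table fell under it. A pooled ratio of 1.5 gave 95 and 83 genes and left *Ccl20* and *Ccl7*, and a ratio of 1.1 gave 2039 and 2081 genes and 6 members higher and 1 lower. Fewer or more genes follow from the construction of these minimums and ratios. Scaling by the summed means or by genes with a mean of at least 100, and a pseudocount of 1, left the 8 members on their side of the ratio. No ratio of a member changed sign in any of these.

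No paired analysis was possible because the tables hold no value per library, and for the same reason no library was left out in turn. Low means limit *Cx3cl1*, *Cxcl2* and *Cxcl10* most. The difference between the hairpins rests on equal library numbers and shared controls in both tables, and was not tested against replicate error.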
